A study of Mus musculus with 16 samples.

Results

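The broad H3K27ac domains of early wild-type Th2 cells were the long stretches of acetylated chromatin found in both early wild-type libraries. A domain was an island of at least 10000 bp in the list of replicate 1 that overlapped an island of at least 10000 bp in the list of replicate 2, taken as the union of each overlapping group. There were 941 such domains. They made up 3.91% of the 24098 regions that both early wild-type libraries held, and the H3K27ac islands of all 8 libraries merged into 35909 regions. The other 23157 early wild-type regions served as the background. The domains are named D001 to D941 in genome order. Positions are on the mouse build mm9, the build of the files. No gene annotation of that build was used, so no gene is named, and the labelled cell type was not checked against marker loci.

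All cells came from Bcl11b fl/fl-CreERT2 mice on a C57BL/6 background, in which Cre recombinase becomes active once 4-OHT, a tamoxifen metabolite, is added. The labels do not name the promoter that drives Cre. Early cells were CD4 T cells grown for 4 days in medium that favours the Th2 fate, with 4-OHT (Bcl11b KO) or without it (Bcl11b WT). Late cells went through 4 days of Th2 priming, 1 day of rest in IL-2 and 4 further days of Th2 culture, and 4-OHT was present in the last period for KO and absent for WT. Each of the 4 groups had 2 H3K27ac ChIP-seq libraries and 2 DNase-seq libraries. No WT sample received 4-OHT, so the effect of the deletion and that of the drug cannot be told apart. Nothing in the labels says that replicates were separate animals or cultures, so the p-values measure the spread between these samples alone, which may be technical.

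H3K27ac, acetylation of lysine 27 on histone H3, marks active promoters and enhancers. Most marked sites are short, but some loci carry the mark over a long stretch in which several enhancers lie close together, and such stretches are often found at genes that define a cell type. DNase-seq finds the sites inside them where DNA is open and can be cut, which is where transcription factors bind. Bcl11b is a zinc finger transcription factor needed for T cell development, and Th2 cells are the helper T cells that make IL-4, IL-5 and IL-13 under the control of GATA3.

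The lists differed in length. The 8 H3K27ac lists covered between 101 and 112 Mb each. The DNase lists covered 46.3 and 66.8 Mb in early WT, 31.4 and 49.3 Mb in early KO, 44.7 and 52.4 Mb in late WT, and 25.9 and 26.2 Mb in late KO. The late KO lists were thus the 2 shortest, and replicate 2 of early WT was the longest. The files hold islands and their scores and no read counts, so the depth is unknown, and a region without an island is one that the list does not hold.

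The domains had a median width of 16.6 kb, with quartiles of 13.2 and 23.4 kb, against a median of 3.2 kb for the other early WT regions. Together they spanned 19.1 Mb, or 17.1% of the length of all early WT regions. The longest was 100.4 kb, 322 domains reached 20 kb, 124 reached 30 kb and 31 reached 50 kb. In 876 domains each library held 1 island of the required length, and 65 domains joined several. The width threshold cut through a continuous range. In 186 domains the shorter of the longest islands of the replicates was under 11 kb, and in 224 of the other regions it was 9 kb or more. Just inside the threshold were D071 (chr2:9992801-10003600, longest islands of 10 and 10.8 kb), D072 (chr2:11061201-11072600, 10 and 11.4 kb) and D136 (chr2:169949601-169960600, 10 and 10.8 kb). Just outside were the regions chr1:134913201-134923800 (10.6 and 9.8 kb), chr1:135987601-135999400 (11.8 and 9.8 kb) and chr1:181473401-181484400 (9.8 and 9.8 kb). In late KO, D071 had 10.6 and 10.2 kb covered, and the first of the regions outside had 10.6 kb in both libraries.

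Domains were spread unevenly over the genome. Chromosome 11 had 108, which was 5.55% of its early WT regions, and chromosome X had 13, which was 2.37%. Chromosome Y had the highest share, 18.2%, from 2 domains beside 9 other regions. The median distance between neighbouring domains was 490.8 kb, but 234 gaps were under 50 kb, and 173 domains stood in 50 groups of 3 or more with gaps of at most 50 kb. The group with the most domains had 7 (chr17:84511401-84742200, 230.8 kb). H3K27ac islands covered 180.6 and 165.4 kb of it in early WT, 118 and 114 in early KO, 143.6 and 138.6 in late WT, and 128.8 and 114.4 in late KO. Its 2 early KO values lay below its late WT values. A group of 6 on chromosome 5 (chr5:53782401-54034200, 251.8 kb) had its highest values in late cells. It had 203 and 192.4 kb in early WT, 169.2 and 167.8 in early KO, 211.2 and 213.6 in late WT, and 218 and 206.2 in late KO.

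Most of the domains' summed length was covered by H3K27ac islands in the groups that did not choose them, although 43 domains were under 50% in both libraries of at least 1 of these groups. The covered share of the domains' summed length was 95.6% ± 1.44 in early WT, 88.1% ± 2.16 in early KO, 86.4% ± 0.576 in late WT and 86.7% ± 2.03 in late KO (SD, n = 2 libraries each). The early WT value is set by the choice of domains, and its excess over the other groups is a description with no test. Late WT and late KO differed by less than the SD of late KO. In these bulk libraries fewer cells with the mark and less of the mark per cell cannot be told apart. The other early WT regions were covered over 87.1% ± 3.93, 72.5% ± 1.99, 69.4% ± 0.0910 and 68.7% ± 2.86 in the same order. In all 6 libraries that did not choose them the domains also ranked high by the authors' island score, a value of the peak caller. The best island of a domain stood at a median percentile of 97.1 to 97.5 of its own list, and islands in domains held 25.1% to 27.5% of the summed score of a list. The domains held 15.1% to 16.3% of the length covered in these lists. That length stops at the borders of the domains, while the score is that of whole islands. These islands reached over 0.761 to 2.37 Mb beyond the borders, so the 2 shares are not on the same footing. No percentile was taken for the other regions, and the part of island length in the score was not tested.

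**Figure D1:**
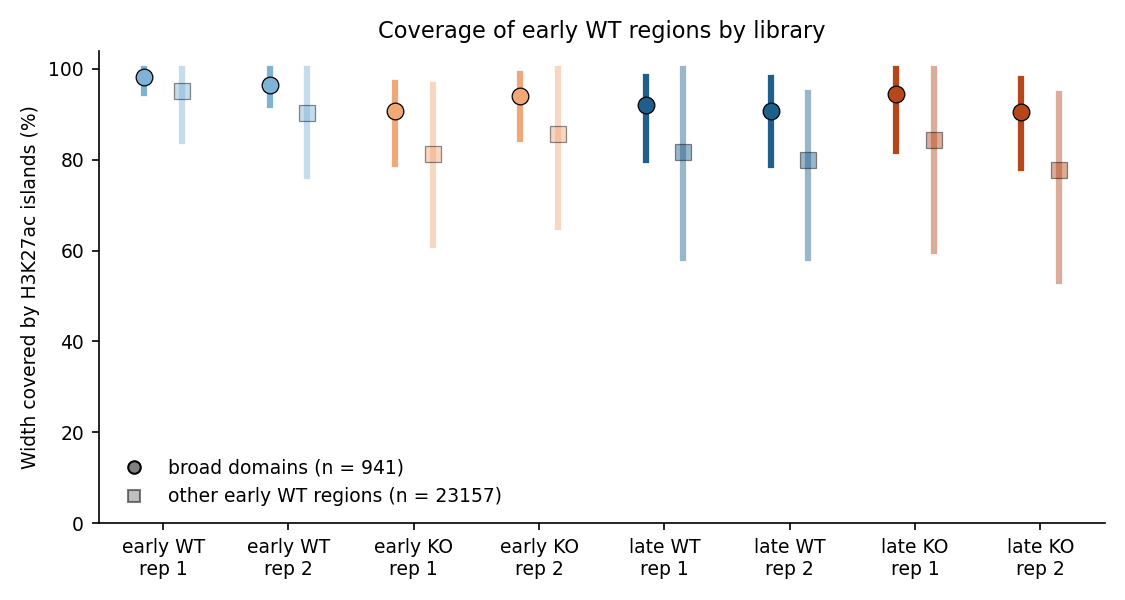
Share of the width covered by H3K27ac islands (%, y axis) in each of the 8 libraries (x axis), for the 941 domains (circles) and the 23157 other early WT regions (squares); symbols are medians and bars run from the lower to the upper quartile over regions. The medians of the domains lay between 90.5% and 94.5% in the 6 libraries outside early WT, above those of the other regions, which lay between 77.8% and 85.7%.

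Counted one by one, 914 domains (97.1%) were covered over at least 50% of their width in both early KO libraries, 891 (94.7%) in both late WT libraries and 884 (93.9%) in both late KO libraries. Over all 24098 early WT regions the shares were 81.8%, 77.7% and 76.2%. Under 50% in both libraries were 14 domains (1.49%) in early KO, 30 (3.19%) in late WT and 34 (3.61%) in late KO, beside 10.7%, 13.9% and 16.4% of all regions. Covered under 10% in both libraries were 1, 2 and 2 domains, beside 5.93%, 7.64% and 10.6%. These shares are set against the early WT libraries that the rule used, and nothing is read from the gap between domains and background. At least 80% in both libraries was covered in 670 domains in early KO, 648 in late WT and 653 in late KO, beside 47.3%, 43.8% and 45% of all regions. In all, 862 domains (91.6%) kept at least 50% in all 6 libraries. For this count, and for the 43 domains under 50% in at least 1 group, the share of all regions was not taken. Of the 30 below it in both late WT libraries, 23 were also below it in both late KO libraries, and 6 were below it in all 3 groups.

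A domain that kept 50% coverage in another group did not always hold an island of at least 10 kb there. By the rule, all 941 domains held such an island in both early WT libraries. Lower counts elsewhere are therefore a description, and no loss of breadth is read from them. In early WT itself, 650 other regions had an island of at least 10 kb in 1 library and were not domains. Islands of at least 10 kb were found in 722 and 812 of the domains in the early KO libraries, in 740 and 722 in late WT and in 769 and 705 in late KO. The same rule applied to each group gave 949 domains in early KO, 1038 in late WT and 1092 in late KO. Of the early WT domains, 701 (74.5%) overlapped one of the early KO domains, and the overlapping early KO domains were 73.3% of that list. For late WT the overlap was 72.1% of the early WT list and 64.4% of its own, and for late KO 72.6% and 60.7%. In all, 557 early WT domains (59.2%) were broad by this rule in all 4 groups and 130 (13.8%) in early WT alone, with no background share taken.

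Coverage was lowest at the edges in every group. The outermost 5% of the width on each side was covered over 77.6% ± 4.76 in early WT, 60.03% ± 5.16 in early KO, 58.0% ± 1.85 in late WT and 60.01% ± 5.203 in late KO (SD, n = 2). The middle was covered over 99.3% ± 0.236, 95.0% ± 1.65, 93.8% ± 0.409 and 93.7% ± 1.55. The edges of the 3 groups outside early WT differed by less than the SD of either KO group. Early WT set the borders at the outer ends of its islands. Its higher edge, and the rise from edge to middle in all groups, are therefore descriptions. An island longer than the domain itself was found in 188 and 301 domains in early KO, 261 and 246 in late WT, and 379 and 238 in late KO. The late KO libraries differed from each other here, and replicate 1 had the longest H3K27ac list of the 8 (111.7 Mb against 100.9 Mb in replicate 2). Its part in that count was not tested.

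**Figure D2:**
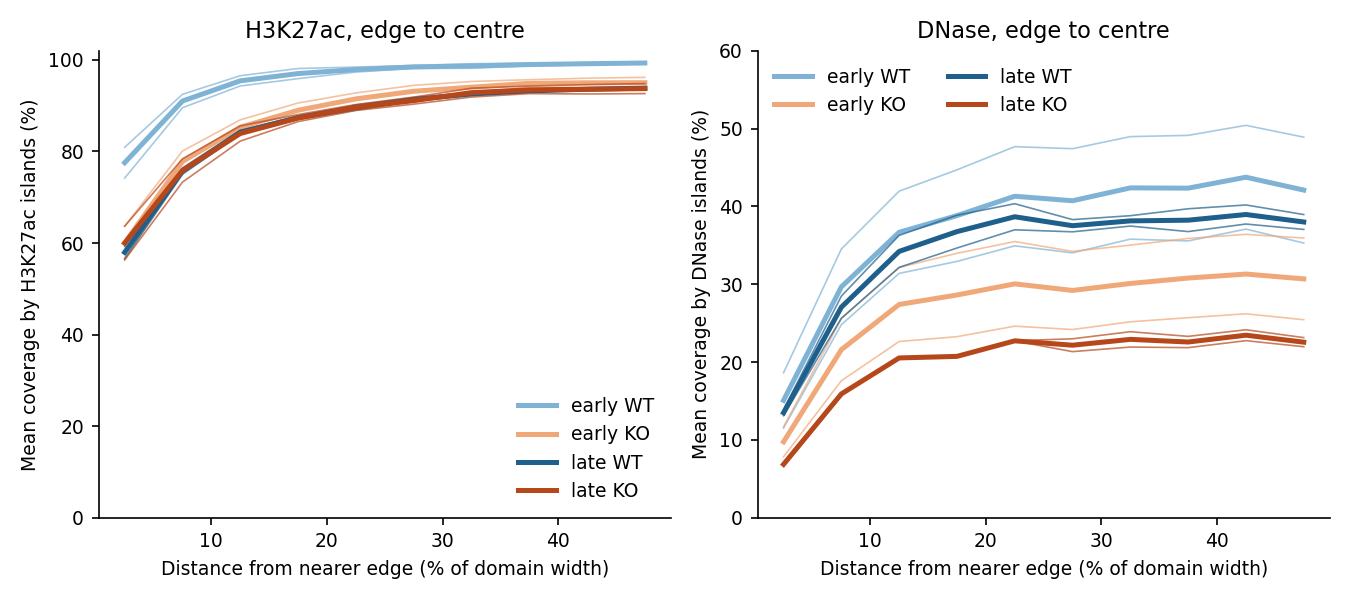
Mean share of the domains covered by islands (%, y axis) against the distance from the nearer edge (% of the domain's width, x axis), for H3K27ac (left) and DNase (right); thick lines are group means and thin lines the 2 libraries of each group. H3K27ac coverage rose from 58.0% to 77.6% at the edge to 93.7% to 99.3% in the middle, and DNase coverage from 6.87% to 15.1% to 22.6% to 42.1%, with late KO lowest.

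The 5 longest domains kept most of their coverage in every group. D681 (chr12:74770601-74871000, 100.4 kb) had 99.2 and 95.6 kb covered in early WT, 73.6 and 77.6 in early KO, 92.2 and 90.6 in late WT, and 88.4 and 80.6 in late KO. Its early KO values were the lowest of the 4 groups and did not overlap the others. D586 (chr11:46138001-46222400, 84.4 kb) had between 79.8 and 84.4 kb in all 8 libraries, D742 (chr14:54776601-54860600, 84 kb) between 79.8 and 84 kb, and D725 (chr13:51815601-51899400, 83.8 kb) between 71.8 and 83.4 kb. D725 was lowest in the 2 early KO libraries, at 71.8 and 75.2 kb. D558 (chr11:3022201-3110000, 87.8 kb) stood apart from the other 4. H3K27ac covered 83.4 to 87.8 kb of it, and DNase islands covered 87.9% to 93.8% of its width in all 8 libraries, where the domains as a whole were open over 19.4% to 42.6%. D023, D024, D025 (neighbours on chromosome 1 between 90119801 and 90181800) and D939 on chromosome X were the other 4 domains with at least 70% DNase coverage in every library. These 4 were picked out after their values were seen. The 5 domains were not compared with a list of mm9 regions of unreliable mapping, and the part of mapping in their coverage was not tested.

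The domains with the lowest H3K27ac coverage in early KO or in late WT were picked by that coverage and are given without a test against early WT. D205 (chr4:119737401-119753600, 16.2 kb) had 15 and 15.6 kb in early WT and was listed at 0 in the other 6 libraries. It was also poor in DNase islands, with 0.4 and 0.6 kb in early WT, 1.8 and 1.4 in early KO, 0.4 in both late WT libraries and 0 in both late KO libraries. D205 was thus a domain of the early WT H3K27ac libraries alone.

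D869 and D912 were low in KO at both stages. D869 (chr17:84621001-84638800, 17.8 kb), a member of the group of 7 on chromosome 17, had 17 and 16.2 kb in early WT, 4.4 and 2.0 in early KO, 7.8 and 8.0 in late WT, and 2.4 and 2.6 in late KO. D912 (chr19:24697201-24711800, 14.6 kb) had 12.6 and 14.4 kb, 3.0 and 2.6 kb, 6.0 and 9.0 kb, and 3.0 and 3.6 kb in the same order. In both domains every KO value lay below every WT value. Their late KO against late WT differences did not pass the test described below (limma adjusted p = 0.161 for D869 and 0.165 for D912). D879 (chr18:24025001-24050400, 25.4 kb) was low in early KO, with 4.0 and 10 kb, against 23.8 and 24.4 kb in early WT, 19.4 and 22.8 in late WT, and 14.6 and 19.4 in late KO.

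Other domains had low coverage in late cells of either genotype. D269 (chr5:134706801-134730600, 23.8 kb) had 23.2 and 18.4 kb in early WT, 8.6 and 11.2 in early KO, 6.8 and 7 in late WT, and 6.8 and 8.2 in late KO. D310 (chr6:114811001-114835400, 24.4 kb) had 23.8 and 20.2 kb, 12.8 and 13 kb, 6.0 and 8.0 kb, and 11.8 and 11.4 kb. D892 (chr18:80833401-80861600, 28.2 kb) had 27.6 and 26.6 kb, 14.4 and 26.8 kb, 4.0 and 2.2 kb, and 7.4 and 9.6 kb. In D310 and D892 the late WT values lay below the late KO values, and neither difference passed the test (limma adjusted p = 0.152 for D310 and 0.211 for D892). The fifth domain of this kind, D592, is given with the tests.

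The tests of H3K27ac left out the early WT libraries, because domains chosen for high coverage there vary too little in them. The kb covered by islands in each of the 24098 regions were taken as log2(kb + 0.5), centred on regions covered in every library fitted, and compared with limma. A region was called at a Benjamini-Hochberg adjusted p under 0.05 over all regions tested. Log2 differences are on that scale, which understates changes of small values, and a domain cannot rise above its width. Some fits used lists cut to equal length, which keep the same number of top-scoring islands per list within an assay. The Mb covered by such lists can still differ.

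Between late KO and late WT, 12 of 940 domains tested differed in H3K27ac, 7 higher and 5 lower in late KO. That is 1.28% of the domains, below the 3.3% called among all 22871 regions tested (1.19% higher and 2.11% lower). Quantile normalization gave 7 higher and 12 lower, and no centring gave 10 higher and 11 lower. The median log2 difference was 0 over the domains and 0 over all regions. An unadjusted p under 0.05 was found for 105 domains, which is 11.2% of them beside 10.7% of all regions. The count fell to 6 without late WT replicate 1, to 5 without late KO replicate 1 and to 4 without late KO replicate 2.

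D745, D916 and D592 kept their call whichever of the 6 libraries was left out. D745 (chr14:67653401-67675800, 22.4 kb) had 6.2 and 9.4 kb in early KO, 17.8 and 15.8 in late WT, and 2.4 and 2.6 in late KO, after 22.4 and 16 in early WT. Late KO was below late WT by a log2 of -2.53 (SE 0.171, limma adjusted p = 0.00283), and 1 short island remained in each late KO library. It was the only one of the 12 called in every alternative that could be run for it, 15 in number. Apart from leaving out a library, 9 settings could be run for D745 against 11 for D592 and D916. D745 was thus tried in fewer settings, and its call is not ranked above theirs. D745 held little open DNA, with 1.2 and 1.4 kb of DNase islands in early WT and 0 in both late KO libraries.

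D916 (chr19:29204401-29233000, 28.6 kb) had 28 and 27.2 kb in early WT, 13.4 and 13.8 in early KO, 16.6 and 14.8 in late WT, and 6.4 and 5.4 in late KO. Late KO was lower than late WT by a log2 of -1.34 (SE 0.071, limma adjusted p = 0.00163), and the groups did not overlap. It was not called in lists cut to equal length (log2 -1.01, limma adjusted p = 0.158) or to their upper 50% by score (log2 -0.23, adjusted p = 0.654). DNase islands covered 5.0 kb of it in both early WT libraries, 2.4 and 3.8 in early KO, 0 and 2.2 in late WT and 0 in both late KO libraries.

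D592 (chr11:52078001-52098400, 20.4 kb) was acetylated over its whole width in early cells of both genotypes and held little or none of the mark in late cells. It had 20.4 and 20 kb in early WT, 20.4 in both early KO libraries, 0 in both late WT libraries, and 2.2 and 2.6 in late KO. The higher coverage in late KO than in late WT passed the test (limma adjusted p = 0.00155), and the late KO islands lay near the middle of the domain. The rise rests on islands of low score, since it was not called in lists cut to equal lengths or to their upper 50% by score. Open DNA went the same way with time. DNase islands covered 9.6 and 14.4 kb in early WT, 9.8 and 13 in early KO, 0 and 0.2 in late WT, and 0 in both late KO libraries.

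The other 3 domains lower in late KO were not called in some fits with a library left out. They were D236 (chr5:28721601-28746400, 24.8 kb, with 19.6 and 16.4 kb in late WT and 10 and 10.2 in late KO), D580 (chr11:31723201-31737000, 13.8 kb, with 11.2 and 10.8 kb and 7.2 and 6.4 kb) and D106 (chr2:103512201-103528800, 16.6 kb, with 15.4 and 15.8 kb and 10.8 and 10.6 kb). Their log2 differences were -0.80, -0.66 and -0.52, with limma adjusted p of 0.0283, 0.0231 and 0.0283. D236 and D580 lost the call without either late WT or either late KO library, with adjusted p between 0.0506 and 0.123, and D106 without any of the 6, with adjusted p between 0.0581 and 0.139. With equal list lengths or the upper 50% of each list by score none of these 3 was called. In the part of each domain shared by both early WT libraries none was called either. There the log2 was -3.07 in D236, -0.21 in D580 and -0.04 in D106 (limma adjusted p = 0.109, 0.539 and 0.993). In each of these domains the mean of early KO lay between those of the late groups, at 12.8 and 16.4 kb in D236, 9.8 and 9.0 kb in D580, and 13 and 15 kb in D106.

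The other 6 domains higher in late KO were covered over most of their width in early cells and over less in late WT, apart from D029. D029 (chr1:93835001-93893600, 58.6 kb) had 57.4 and 43.8 kb in early WT, 14.8 and 14 in early KO, 24.4 and 20 in late WT, and 41.2 and 33.6 in late KO. Late KO was higher than late WT by a log2 of 0.74 (SE 0.109, limma adjusted p = 0.0345), while in early cells KO was the lower genotype, a difference that was not tested. D339 (chr7:25149801-25173600, 23.8 kb) had 23.8 kb in both early KO libraries, 17.8 and 16 in late WT, and 23.8 and 23.2 in late KO (log2 0.47, adjusted p = 0.0159 by limma). D044 (chr1:137020601-137045400, 24.8 kb) had 15.8 and 15.6 kb in late WT and 21.6 and 19.4 in late KO.

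D101 (chr2:91784401-91806200, 21.8 kb) had 14.8 kb in both late WT libraries and 19.6 and 19 in late KO. D171 (chr3:130826001-130882200, 56.2 kb) had 42.6 and 37.8 kb in late WT and 51.6 and 48.2 in late KO, and D628 (chr11:97676001-97694000, 18 kb) had 13.8 and 12 kb and 17.4 and 16.4 kb. The log2 differences of D044, D101, D171 and D628 lay between 0.31 and 0.38, with limma adjusted p between 0.0318 and 0.0452. D029, D044, D101, D171 and D628 lost the call when any of the 6 libraries was left out (adjusted p between 0.0508 and 0.203), and D339 when either late WT or either late KO library was (0.0544 to 0.0958). In the upper 50% of each list by score D029, D101, D171 and D628 were not called, and with equal list lengths D171 was not. In the part of each domain shared by both early WT libraries only D171 of the 6 was called. There the log2 was 0.14 in D044 and 0.13 in D628 (limma adjusted p = 0.522 and 0.637). In D029, D101, D171 and D339 it lay between 0.30 and 0.75. The groups did not overlap in any of the 6, but these calls are near the threshold.

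**Figure D3:**
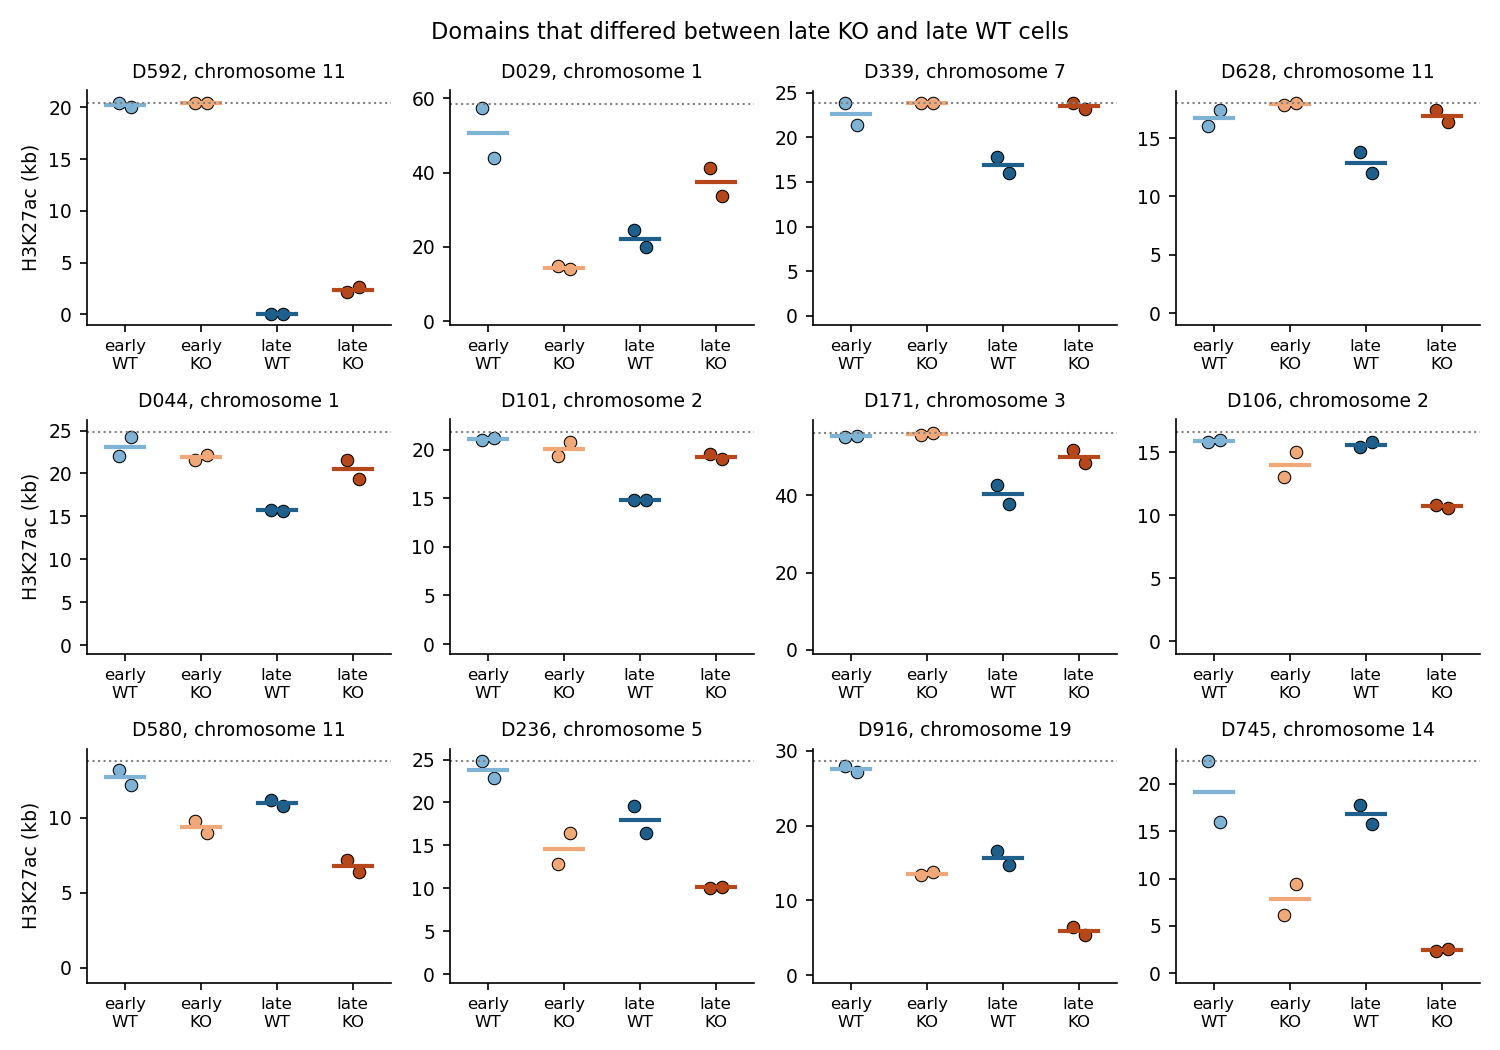
H3K27ac coverage (kb, y axis) of the 12 domains that differed between late KO and late WT, in the 4 groups (x axis); points are the 2 libraries, bars their mean, and the dotted line is the width of the domain. D745 and D916 are lowest in late KO, D592 is full in early cells and near 0 in late cells, and D029 is lowest in early KO.

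Within KO cells, 31 of 940 domains differed between early and late culture, 25 lower and 6 higher in late cells. That is 3.30% of the domains beside 5.29% of all regions (4.2% lower and 1.1% higher). Quantile normalization gave 23 lower and 14 higher, and no centring 29 lower and 14 higher. The median log2 difference was 0 over domains and over all regions, and 137 domains (14.6%, beside 14.1% of all regions) had an unadjusted p under 0.05. This contrast and the last share the late KO libraries. Early KO had 4-OHT during the first 4 days of culture, and late KO only during the last 4. Culture stage and the time of deletion therefore cannot be told apart here. Falls and rises mean lower and higher coverage in late KO than in early KO. The count fell to 11 and 10 without early KO replicate 1 or 2, and to 16 and 15 without late KO replicate 1 or 2.

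The 25 domains that fell had 81.1% and 85.4% of their width covered in early KO and 51.0% and 48.2% in late KO, and in late WT they stood at 61.0% and 57.5%. D592 fell the most, from 20.4 kb in both early KO libraries to 2.2 and 2.6 kb (log2 -2.85, SE 0.122, limma adjusted p = 0.00130), and was called in all 17 alternatives. D633 (chr11:98958801-98974800, 16 kb) fell from 13.4 kb in both early KO libraries to 4.4 and 2.2 kb, with 6.4 and 6.8 in late WT (log2 -1.93, limma adjusted p = 0.0156). D745 fell from 6.2 and 9.4 kb to 2.4 and 2.6 kb (log2 -1.44, limma adjusted p = 0.0104), and D916 from 13.4 and 13.8 kb to 6.4 and 5.4 kb (log2 -1.14, limma adjusted p = 0.00170). D633 was not called without either early KO library (adjusted p = 0.0982 to 0.108) and D745 not without late KO replicate 1 (adjusted p = 0.053). With equal list lengths D745 and D916 were not called, nor was D916 in the upper 50% of each list (log2 -0.40, adjusted p = 0.188). In the part of each domain shared by both early WT libraries D633 was not called (log2 -1.32, limma adjusted p = 0.0632).

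The 4 largest rises within KO were in domains that were partly covered in early KO and full or nearly full in late cells of both genotypes or, for D029, partly covered. D029 rose from 14.8 and 14 kb to 41.2 and 33.6 kb (log2 1.34, SE 0.109, limma adjusted p = 0.00306). D495 (chr9:81886001-81896800, 10.8 kb) rose from 5.4 and 4.2 kb to 10.8 and 10.2 kb, with 10.8 kb in both late WT libraries (log2 1.062, limma adjusted p = 0.0175). D047 (chr1:145443001-145454800, 11.8 kb) rose from 4.8 and 5.2 kb to 11 and 10.2 kb, with 11 and 10.6 kb in late WT (log2 1.01, limma adjusted p = 0.00139). D249 (chr5:89766801-89787600, 20.8 kb) rose from 14.2 and 12.6 kb to its full 20.8 kb in both late KO libraries, as in both late WT libraries (log2 0.62, limma adjusted p = 0.0323). In D047 and D495 DNase islands were listed at 0 in all 4 KO libraries, against 1.4 and 2.6 kb in early WT and 1.8 and 2.0 in late WT for D047, and 1.8 and 1.2 kb and 1.2 and 0.6 kb for D495. D029 and D047 kept the call in every fit with a library left out, D495 lost it without either late KO library (adjusted p = 0.0785 to 0.0795), and D249 without early KO replicate 2 or either late KO library (0.0975 to 0.144). In the upper 50% of each list the log2 of D029 was 0.14 (limma adjusted p = 0.692) and D495 was not called, and with equal list lengths D047 was not (adjusted p = 0.0526). In the part of each domain shared by both early WT libraries D249 was not called (log2 0.18, limma adjusted p = 0.376).

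DNase-seq was not used to choose the domains. A DNase island was present in all 8 libraries in 814 domains and in none in 5: D245, D647, D676 and both domains of chromosome Y, D940 and D941. Domains held 3.22 ± 0.203 DNase islands each in early WT, 2.94 ± 0.479 in early KO, 2.95 ± 0.306 in late WT and 2.12 ± 0.0819 in late KO (SD, n = 2). Per 10 kb that was 1.58, 1.45, 1.45 and 1.04 islands, fewer than the 2.37, 2.02, 2.12 and 1.40 of the other early WT regions. Late KO was below late WT by more than the SD of either group in both sets. In lists cut to equal length, a setting chosen after seeing the data, domains held 1.95, 2.03, 1.99 and 2.06 islands in the same order. That cut gives every list the same number of islands, which by itself brings these counts together, so nothing is read from them.

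The open sites in domains were shared about as often as those in the other early WT regions. Merging the DNase islands of the 8 libraries gave 2691 sites in domains, of which 1332 (49.5%) were present in all 8, beside 46.3% of 23008 sites in the other early WT regions and 5.02% of 22277 sites outside both. In domains, 399 sites (14.8%) were found in both late WT and neither late KO library, and 8 (0.297%) the other way round. In early cells 151 (5.61%) were held by the WT pair alone and 24 (0.892%) by the KO pair alone. Sites in the other early WT regions divided alike, with 16.8% and 0.248% in late cells. The late KO lists were the 2 shortest, and the part of list length in these site counts was not tested.

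Domains with low H3K27ac coverage in later or KO cells had less open DNA already in early WT. The 23 domains under 50% in both late WT and both late KO libraries were open over 13.8% and 21% of their length in the early WT libraries, against 32.0% and 44.2% for the 862 domains that kept their coverage. In late WT the values were 10.1% and 12% against 34.0% and 36.6%. The 14 domains under 50% in both early KO libraries were open over 7.49% and 12.7% in early WT. The sets were formed on H3K27ac and were not tested against each other.

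In the test of DNase coverage, fitted over all 8 DNase libraries and 20589 regions, 934 domains were tested. Late KO was lower than late WT in 78 domains and higher in 0. That is 8.35% of the domains beside 6.63% of all regions (6.44% lower and 0.194% higher), and 279 domains (29.9%, beside 20.6% of all regions) had an unadjusted p under 0.05. The median log2 difference was -0.455 over the domains and -0.258 over all regions. Without centring these medians were -0.731 and -0.539, after quantile normalization -0.220 and 0.098, and in lists cut to equal length -0.159 and -0.005. In lists cut to equal length 23 domains were lower and 5 higher, and the part of list length in the one-sidedness was not tested. This cut changes the lowest score kept as well as the number of islands. No domain was called when either late WT library was left out (limma, 213 domains with an unadjusted p under 0.05 without replicate 1 and 183 without replicate 2). The count was 40 and 41 without early WT replicate 1 or 2, and 42 without late KO replicate 2.

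The 78 domains had 6.78 and 7 kb of DNase islands on average in late WT, 1.67 and 1.69 in late KO, 6.22 and 8.52 in early WT, and 4.22 and 5.62 in early KO. In 27 of them no DNase island remained in either late KO library. H3K27ac covered 85.1% and 84.5% of their width in late WT and 85.8% and 82.0% in late KO, beside 88.4% and 85.6% of the other domains in late KO. D339 was the only domain called for both marks between late KO and late WT, and there H3K27ac was higher and DNase lower in late KO. Its DNase islands covered 9.0 and 8.8 kb in late WT and 2.8 and 1.8 in late KO (log2 -1.50, SE 0.237, limma adjusted p = 0.0188).

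The 4 largest falls were in domains whose DNase islands were all missing in late KO, so no fold is given. D763 (chr15:36377601-36392000, 14.4 kb) had 3 open sites in both late WT libraries, covering 8.2 and 7 kb, and 0 in late KO (limma adjusted p = 0.0100). In early cells it had 7.4 and 8.0 kb in WT and 3.0 and 6.2 kb in KO. H3K27ac covered 8.2 and 8.4 kb in late KO, as 3 islands in each library, against 11.8 and 13 in late WT, as 2. D076 (chr2:11608201-11619400, 11.2 kb) had 7.4 and 8.6 kb of DNase islands in late WT and 0 in late KO, while H3K27ac filled all 11.2 kb in both groups (limma adjusted p = 0.0205).

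D860 (chr17:52031201-52051800, 20.6 kb) had 4.6 and 5.4 kb open in late WT and 0 in late KO (limma adjusted p = 0.0151), with 4.0 and 7.2 kb in early WT and 0.6 and 2.6 in early KO. H3K27ac covered 20.6 kb in both late WT libraries and 20.6 and 18.2 in late KO. D033 (chr1:108435601-108473000, 37.4 kb) had 4.6 and 6.2 kb open in late WT and 0 in late KO (limma adjusted p = 0.0152), with 18.8 and 19.6 kb of H3K27ac in late KO against 31 and 27.6 kb in late WT. Without late WT replicate 1 or 2 none of these 4 was called. D033 and D860 were also not called without late KO replicate 2, and D076 without either early WT or either late KO library. Over these fits the adjusted p of the 4 lay between 0.0508 and 0.11. None of the 4 was called in lists cut to equal length or to their upper 50% by score, where D033 changed sign (log2 0.28 and 0.40).

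**Figure D4:**
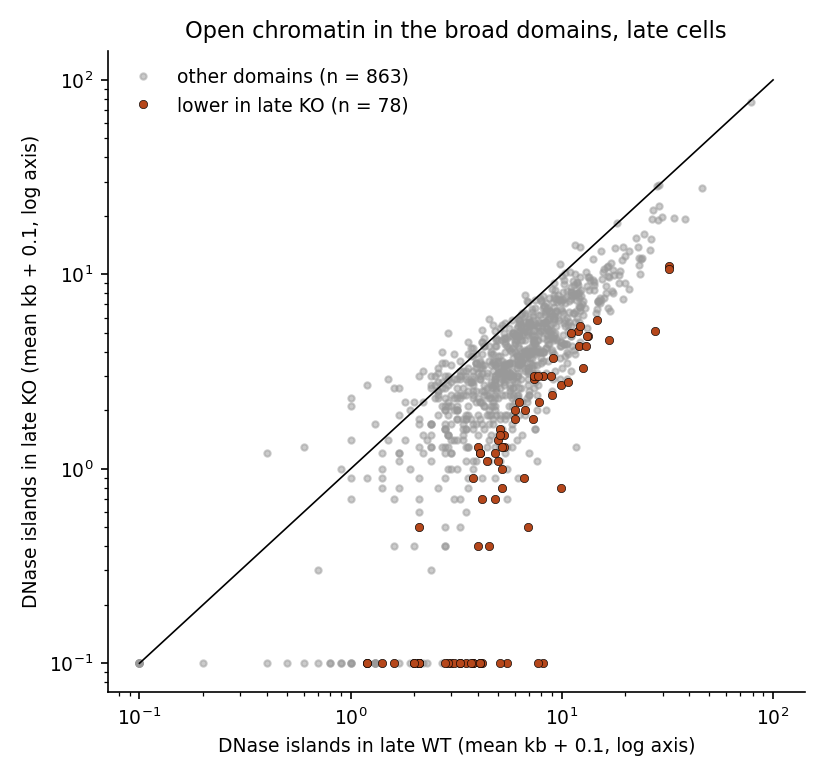
DNase islands in late KO (mean kb of 2 libraries plus 0.1, y axis, log scale) against late WT (x axis, same scale) for the 941 domains; dark points are the 78 domains called lower in late KO and the line marks equal values. Most points lie below the line, and 27 of the called domains sit on the floor of the y axis, where late KO had no island.

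Of the 5 longest domains, D742 had less DNase coverage in late KO than in late WT. D742 had 29 and 34.8 kb in late WT and 9.4 and 11.6 in late KO, a fall by a log2 of -1.28 (SE 0.231, limma adjusted p = 0.0256). D681 had 19.2 and 19.6 kb against 8.0 and 6.8 kb, D725 had 23.0 and 29.8 kb against 15 and 15.2 kb, and D586 had 24.8 and 34.8 kb against 23.6 and 15.8 kb. D681, D725 and D586 did not pass the test (limma adjusted p = 0.0881, 0.386 and 0.692). D558 had 77.2 and 79.2 kb against 77.2 and 77.4 kb.

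In early cells DNase coverage differed in 0 of 934 domains between KO and WT, and in 0% of all regions, by limma at an adjusted p under 0.05. The smallest adjusted p was 0.0509, and 87 domains (9.32%, beside 9.71% of all regions) had an unadjusted p under 0.05. The median log2 difference was -0.192 over the domains and -0.049 over all regions. The early WT lists differed widely in Mb covered, and lists cut to equal length gave 17 calls, 15 lower and 2 higher in KO. The test of whether the KO effect differed between early and late cells called 0 of 934 domains and 0% of all regions (limma, smallest adjusted p 0.0692, 120 domains or 12.9% with an unadjusted p under 0.05, beside 13.2% of all regions). The upper 50% of each list by score gave 32 such calls, 26 lower and 6 higher, and the number of DNase islands gave 10, all lower. The count of such calls therefore depends on the islands used.

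From early to late KO cells DNase coverage fell in 66 domains and rose in 0, which is 7.07% of the domains beside 6.71% of all regions (6.55% lower and 0.16% higher). The median log2 difference was -0.299 over the domains and -0.221 over all regions. Lists cut to equal length gave 25 lower and 3 higher. This comparison uses the same late KO libraries as that with late WT and is not independent of it. As for H3K27ac, culture stage and the time of deletion cannot be told apart between early and late KO. D592 fell from 9.8 and 13 kb, D763 from 3.0 and 6.2 kb, D475 (chr9:45009001-45022200, 13.2 kb) from 3.6 and 5.2 kb and D636 (chr11:100699801-100716000, 16.2 kb) from 3.2 and 5.6 kb, each to 0 in both late KO libraries (limma adjusted p = 0.00659 to 0.0111). With equal list lengths D592 and D475 were not called, and in the upper 50% of each list by score D592, D636 and D763 were not. H3K27ac covered 10.6 and 12 kb of D475 in early KO and 9.0 and 8.0 kb in late KO. In D636 it covered 15.4 and 15.8 kb and then 14.6 and 15 kb. In D763 it fell from 14 and 14.4 kb to 8.2 and 8.4 kb. Like D592, D475 and D763 were also called lower in H3K27ac in late KO than in early KO. Their log2 differences were -0.39 and -0.74 (limma adjusted p = 0.0314 and 0.0143). The count fell to 43 without early WT replicate 1, to 44 without early WT replicate 2 and to 37 without early KO replicate 2, where D636 was not called (adjusted p = 0.0531).

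From early to late WT cells DNase coverage fell in 5 domains and rose in 0, which is 0.535% of the domains beside 2.05% of all regions (1.78% lower and 0.272% higher). D592 fell from 9.6 and 14.4 kb to 0 and 0.2 kb (log2 -4.32, SE 0.236, limma adjusted p = 0.00848). D933 (chrX:54460801-54478400, 17.6 kb) fell from 3.4 and 3.8 kb to 0 and 0.6 kb, and D633 from 5.8 and 7 kb to 2.4 and 3.0 kb (limma adjusted p = 0.0383 and 0.0400). D880 (chr18:24063401-24077000, 13.6 kb) fell from 3.4 and 5.6 kb to 1.0 and 1.2 kb, and D302 (chr6:108175201-108188800, 13.6 kb) from 1.0 and 2.8 kb to 0 in both libraries (limma adjusted p = 0.0424 and 0.0309). In late WT H3K27ac covered 15.8 and 15.6 kb of D933 and none of D592. The 5 calls went to 0 when either early WT or either late WT library was left out (limma, 41 to 56 domains with an unadjusted p under 0.05) and to 1 without either late KO library. No centring and quantile normalization each left 1 call, that of D592. Lists cut to equal length gave 14 lower and 7 higher, and their upper 50% by score gave 15 lower and 2 higher, both without a call for D592.

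**Figure D5:**
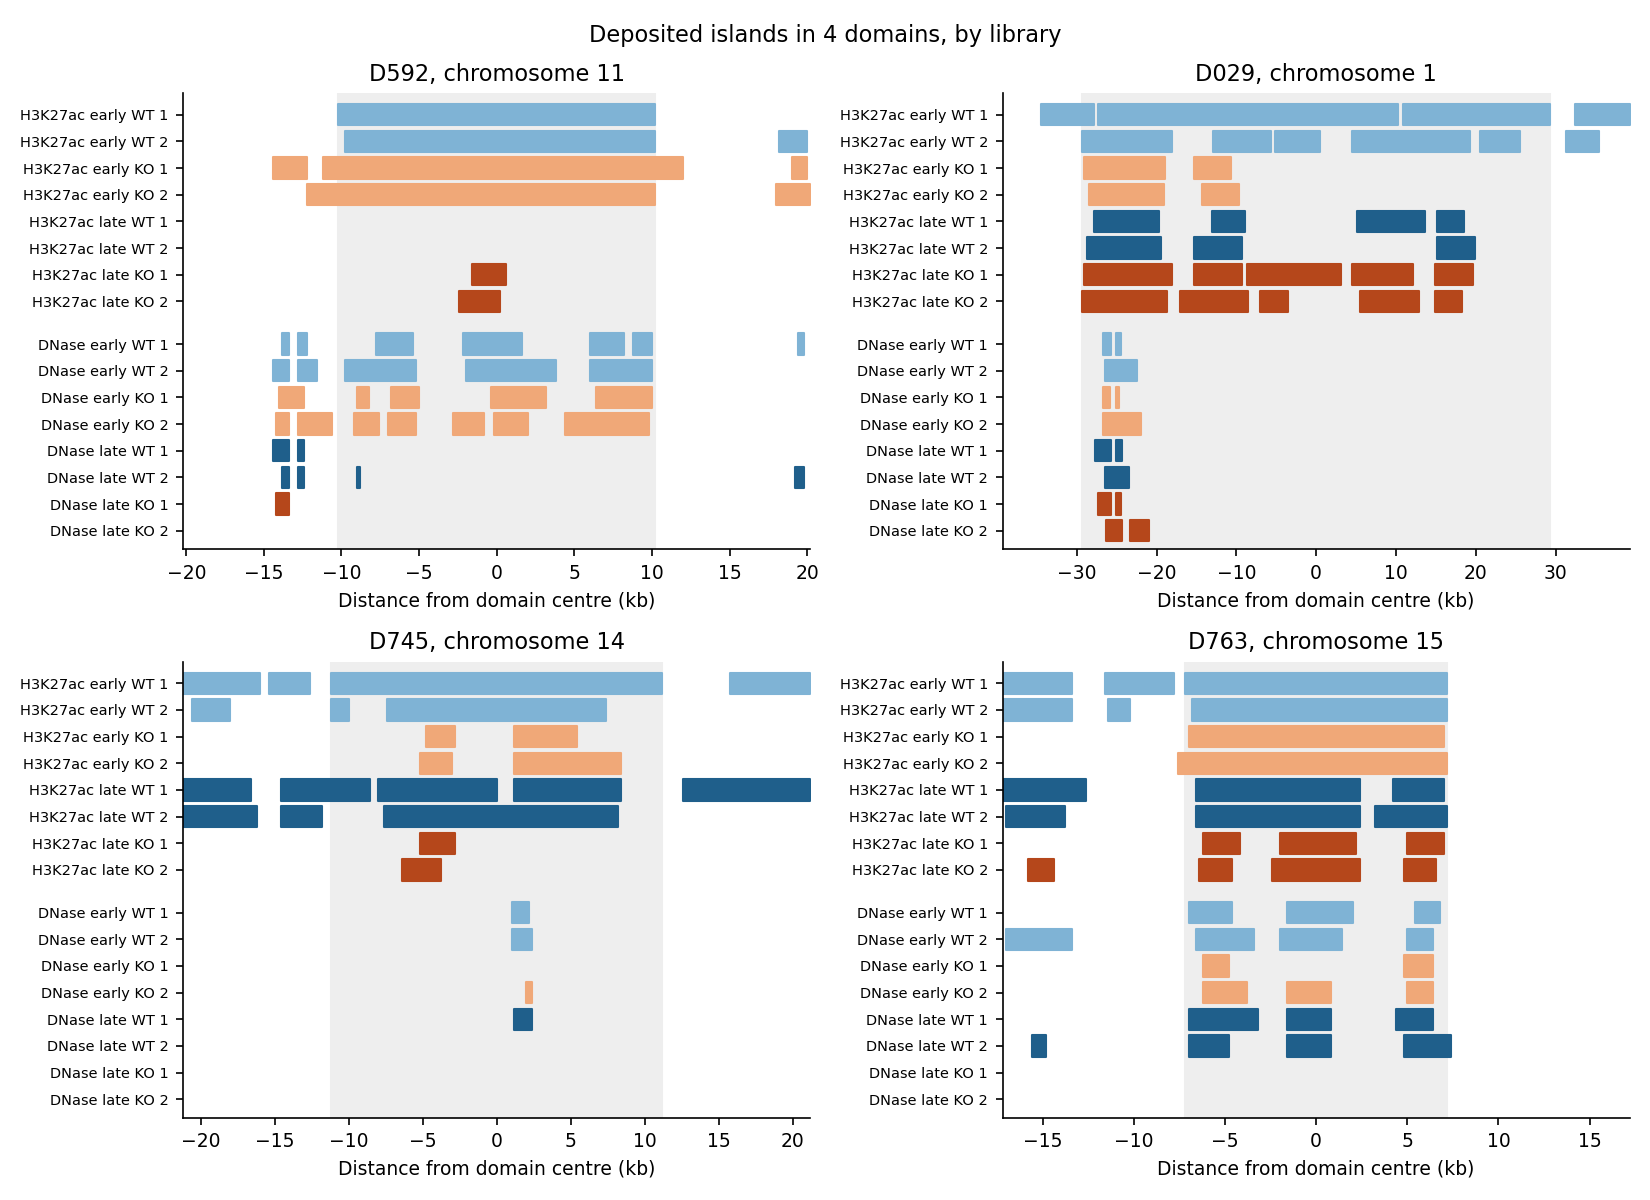
Deposited islands in D592, D029, D745 and D763, with 1 row per library (y axis) and the distance from the centre of the domain in kb (x axis); bars are islands, the grey band is the domain, and 10 kb are drawn on each side. D592 is empty of H3K27ac islands in late WT and holds 1 short island in each late KO library, D745 keeps 1 short island in late KO, and D763 has no DNase island in late KO.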

How the data were processed

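H3K27ac ChIP-seq and DNase-seq libraries were processed by the authors with CASAVA 2.18, Bowtie2 and SICER 1.1 on mm9, per the submitters' processing notes. The deposited lists give the islands of each library and a score, the authors' own value from the caller, used here for ranks within a list. Windows of 200 bp and gaps of 400 bp are named in the list names. SICER joins windows across gaps, so island length depends on depth, which is unknown. No control library is named in the sources used here. The starting cells are labelled naive, although the sort in the labels is CD4+CD44high, and this is left as it stands.

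The members, settings and tests were chosen with earlier results of these data known. Coverage of each region was taken in kb from the deposited islands and transformed as log2(kb + 0.5). Regions covered in at least 2 libraries of a fit were compared with limma 3.58.1 (eBayes, trended prior) in R 4.3.3, with Benjamini-Hochberg adjustment over all regions tested. Regions with the same value in both libraries of every group were not tested. H3K27ac fits held 6 libraries, with 22871 regions, and DNase fits 8, with 20589. D205 was not tested for H3K27ac, nor were D172, D245, D647, D676, D879, D940 and D941 for DNase. Where both libraries of a group are at 0 or fill a domain, its spread comes mainly from the other groups and regions. Named were the 5 longest domains, the 8 largest rises and falls called in late H3K27ac and 4 in each other contrast, the 5 with the lowest coverage in early KO and in late WT, and the 3 nearest the threshold on each side. Others are named where they share a count or a pattern, after their values were seen. Python 3.11.15, pandas 2.3.3 and matplotlib 3.10.9 were used.

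The alternatives were no centring, quantile normalization, a pseudocount of 2 kb, no filter, lists cut to equal length or to their upper 50%, islands within 1 kb merged, a replicate block, all 8 libraries, a 15000-bp threshold, the part shared by both early WT libraries, the number of DNase islands, and each library left out.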

Additional observations from a re-analysis of the deposited data

How the results depend on the processing

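For H3K27ac in late KO against late WT (12 domains), no centring gave 21, quantile normalization 19, the upper 50% of each list 22, the replicate block 6, the 15000-bp threshold 5 and the part shared by both early WT libraries 7, and leaving out a library gave 4 to 10. For late against early KO (31), the upper 50% gave 47, the replicate block 16 and the 15000-bp threshold 8, and leaving out a library 10 to 30. For DNase in late KO against late WT (78), no centring gave 120, quantile normalization 15, the larger pseudocount 39, equal list lengths 28, the 15000-bp threshold 30 and the number of islands 132, and leaving out a library 0 to 112. For late against early KO (66), quantile normalization gave 20, the larger pseudocount 36, equal lengths 28, the 15000-bp threshold 24 and the number of islands 103, and leaving out a library 37 to 71. For late against early WT (5), no centring and quantile normalization gave 1 each, the larger pseudocount 3, equal lengths 21, the upper 50% 17, the replicate block 1, the 15000-bp threshold 2 and the number of islands 2, and leaving out a library 0 to 6. For early KO against early WT (0), no centring gave 1, no filter 3, equal lengths 17, the upper 50% 13 and the number of islands 1. For the difference of the KO effect between stages (0), the upper 50% gave 32 and the number of islands 10. Leaving out any 1 DNase library gave 0 for both of these last comparisons. The 15000-bp threshold tests fewer domains, and apart from that the cause was not tested. Calls were not always of the same domains. Of the 12, 12 were called again with the larger pseudocount, 8 without centring, 4 in the shared part and 2 in the upper 50%. Of the 78, 78 were called again without centring, 35 by number of islands, 25 in the upper 50% and 20 with equal lengths. Leave-outs and the 15000-bp threshold aside, 0 of the 12 and 6 of the 31 were called in every setting. For DNase it was 2 of the 78 and 3 of the 66. A domain not tested counts as not called. Where leaving out a library leaves 1 in a group, that sample is assumed to vary like the other groups.

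With the 15000-bp threshold in each group there were 357 domains in early WT, 372 in early KO, 430 in late WT and 483 in late KO. Equal list lengths gave 1.95, 2.03, 1.99 and 2.06 DNase islands per domain in early WT, early KO, late WT and late KO. That cut itself equalizes the number of islands per list.

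Of 32 results for named domains, 540 values under alternatives held 362 with the same direction and call, 175 with the call lost and 3 with the opposite sign. D033 in late DNase had a log2 of 0.276 with equal list lengths and 0.396 in the upper 50%, and D592 in late H3K27ac had -0.038 in the upper 50%.

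The replicate numbers of the labels were checked for pairing. Same-numbered libraries deviated together with correlations of -0.018 to 0.064 for H3K27ac and -0.0067 to 0.093 for DNase, so the numbers were not taken to pair samples. The replicate block moved the 12, 31, 78 and 66 calls to 6, 16, 59 and 55.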
